A study of Salix linearistipularis with 24 samples.

Results

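The 200 transcript clusters described here were those whose level was lowest, relative to roots kept in water, in every NaCl group of both sexes of the willow Salix linearistipularis. A cluster is a set of similar contigs of the de novo assembly, named CL with a number, and its level is the sum of the FPKM values of its contigs. FPKM is a fragment count divided by transcript length and by the mapped fragments of the library. The members were selected on a score, the highest of the 6 values of log2((NaCl + 0.5)/(control + 0.5)) over female and male roots at 6, 12 and 24 h, taken from means of 3 libraries. The 200 lowest of 20750 ranked clusters were taken, after 3 clusters had been set aside by the rule (20753 clusters in all). Since this score chose them, their fall under NaCl is given as a description, without a test.

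The study exposed hydroponic cuttings of both sexes to water (CK, the control) or to 100 mM NaCl, and asked how the root transcriptomes of the sexes differ under salinity. The data are 24 root RNA-seq libraries in 8 groups of 3: female control, female 6 h, 12 h and 24 h NaCl, male control, and male 6 h, 12 h and 24 h NaCl. By the labels, the cuttings of each sex were propagated from 1 individual, so sex cannot be told apart from that individual. On that reading p-values measure the spread between cuttings of 1 clone per sex, pooled over all 8 groups. The methods of the study describe cuttings from several populations instead. The hour at which control roots were sampled is not given, so the 3 NaCl times of a sex share 1 control group.

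Willows are dioecious trees, with male and female flowers on separate plants. Roots meet salt first: sodium that enters the root is pumped back out, stored in vacuoles or carried to the shoot, and roots under salt commonly slow growth and shift their transcription within hours. A fall in a transcript of whole roots can come from less RNA per cell or from fewer cells of the type that holds it, and the 2 cannot be told apart in these libraries. The table carries no names for its rows. Of the 56 clusters that the supplementary tables of the study name, 0 are among the members, so no product and no root marker can be given, and the members are described by their levels and their contigs.

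Total FPKM lay between 663314 and 778064 per library. Read numbers are not in the table. Low values were taken to come in steps of 1 read, and the most frequent ratio of those steps put the depth at 0.973 to 1.13 times that of the first female control library. That ratio held only 3.41 to 7.4% of the ratios in any other library, so the estimate is weak. This estimate used values from 0.3 to 2 FPKM and cannot show a large difference in depth. The male 6 h NaCl libraries stood apart from each other. Replicate 1 held 102 FPKM summed over the members, against 437 in replicate 2 and 348 in replicate 3, and it was the lowest or tied lowest of the 3 in 178 of the 200 members.

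The score ran from -3.70 for CL1973 to -1.94 for CL18488 at rank 200, with a median of -2.37. Over all ranked clusters the median score was 1.03. A score below 0, a lower mean in all 6 NaCl groups, was found in 5722 clusters (27.6%), and a score of -1 or less in 730 (3.52%). The value that set the score came from male roots at 6 h in 108 members, from female roots at 6 h in 46, and from male or female roots at 12 h in 20 and 19. At 24 h it came from male roots in 5 members and from female roots in 2.

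The edge of the choice fell within a dense run of values. The last 3 clusters inside were CL4088, CL8366 and CL18488, with scores of -1.95, -1.94 and -1.94. The first 3 outside were CL2301, CL2352 and CL15488, at -1.94 each. CL2301 was far more abundant than the members, with means of 628 FPKM in female and 646 FPKM in male control roots and 10.2 FPKM in male roots at 24 h.

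All 200 members separated without overlap. The 9 NaCl libraries of a sex lay below the 3 control libraries of that sex in every member. A complete separation of the 3 NaCl from the 3 control libraries in this direction was seen in 35.5%, 43.3% and 61.3% of all clusters in female roots at 6, 12 and 24 h, and in 34.5%, 47.1% and 54.1% in male roots. In the limma fit, which tests log2(FPKM + 0.5) of 95202 genes in 1 model and calls a change where the adjusted p is 0.05 or less and the log2 difference 1 or more in size, all 200 were called lower in all 6 comparisons. The share of all tested clusters called lower was 16.9%, 11.8% and 30.4% in female roots at 6, 12 and 24 h and 23.3%, 37.2% and 42.1% in male roots. Nothing is read from these counts, since the choice fixed them.

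**Figure D1:**
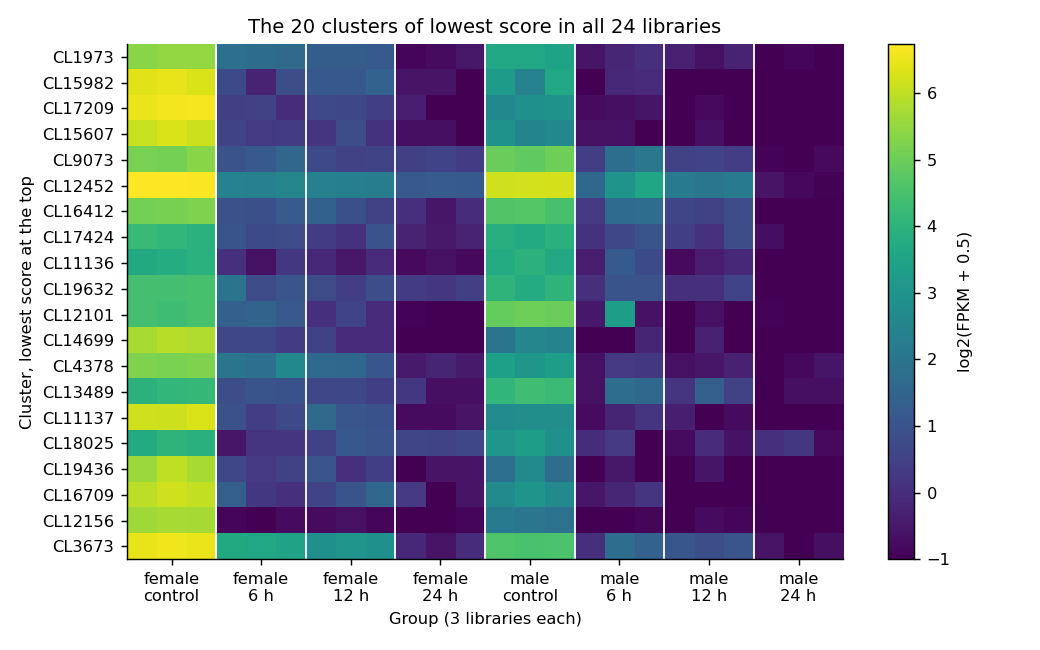
Levels of the 20 clusters of lowest score (y axis, lowest at the top) in all 24 libraries (x axis, 3 per group), coloured by log2(FPKM + 0.5). The control columns of each sex are bright, and the NaCl columns are dark in both sexes and darkest in male roots at 24 h, where 11 of the 20 were listed at 0 in all 3 libraries.

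CL1973, the cluster of lowest score, has 9 contigs. It stood at 40.8, 43.8 and 44.2 FPKM in the female control libraries and at 11.6, 11.6 and 10.7 in the male ones. Under NaCl the female libraries held 3.01, 2.83 and 2.69 FPKM at 6 h and 1.91, 1.92 and 1.80 FPKM at 12 h. By 24 h they held 0.04, 0.09 and 0.21 FPKM. The male libraries held 0.16, 0.39 and 0.53 FPKM at 6 h and at most 0.04 at 24 h. The level was thus lower at each later time in female roots, and under 1 FPKM from 6 h on in male roots.

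CL12452, with 7 contigs, was abundant in the control roots of both sexes. Its control level was 104, 106 and 103 FPKM in female and 72.2, 72.9 and 74.3 FPKM in male roots. At 6 h female roots held 4.86, 4.62 and 5.28 FPKM of it, and male roots 2.49, 7.60 and 11.1. At 24 h the female libraries still held 1.74, 1.84 and 1.76 FPKM, and the male libraries 0.17, 0.06 and 0.02.

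CL9073, CL16412 and CL17424 had a similar course at a lower abundance. CL9073 went from 36.0, 34.0 and 40.4 FPKM in female control roots to 0.88, 0.97 and 0.77 at 24 h. In male roots it went from 30.6, 28.5 and 31.8 FPKM to 0.03, 0 and 0.07. CL12101 shows how 1 library can carry a group: in male roots at 6 h it read 0.21, 9.65 and 0.15 FPKM, against 29.8 to 32.0 in the male control.

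Other clusters of the 20 were far higher in female than in male control roots. CL17209 held 89.6, 96.0 and 97.9 FPKM there and 5.63, 6.92 and 7.29 in male control roots. At 6 h it was at 0.87, 0.95 and 0.49 FPKM in female and at 0.08, 0.12 and 0.18 in male roots. In male roots at 24 h it was listed at 0 in all 3 libraries. CL15982, CL15607, CL14699, CL11137, CL19436, CL16709 and CL12156 were likewise higher in female control roots and listed at 0 in male roots at 24 h. CL12156 went from 49.4, 52.7 and 51.1 FPKM in the female control to 0.05, 0 and 0.09 at 6 h.

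Summed over the 200 members, the female control libraries held 6050, 6466 and 6261 FPKM, which was 0.857 to 0.902% of all FPKM in those libraries. The male control libraries held 2372, 2378 and 2458 FPKM, or 0.331 to 0.339%. The female NaCl libraries held 537 to 546 FPKM at 6 h, 495 to 514 at 12 h and 133 to 139 at 24 h. The male ones held 102 to 437, 138 to 144 and 64.9 to 71.3. Between 6 and 12 h the summed level in female roots therefore moved little, and between 12 and 24 h it was lower in both sexes.

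For a single member, the median share of its control level that was left in female roots was 7.33% at 6 h, 6.39% at 12 h and 1.13% at 24 h. In male roots it was 9.33%, 4.08% and 0.303%. In the controls 0 members were listed at 0 in any library. Under NaCl, 5, 3 and 15 members were listed at 0 in all 3 female libraries at 6, 12 and 24 h, and 8, 28 and 78 in all 3 male libraries. Over all clusters the shares were 3.04%, 5.60% and 7.89% at the female times and 2.83%, 3.93% and 9.95% at the male ones. The female counts were at or under these shares, the male count at 6 h was near its share, and those at 12 and 24 h were above. The choice was made on these same NaCl levels, so nothing is read from the counts. Scaling libraries by their median ratio, chosen after seeing the data, raised the median share left to 7.26% in male roots at 12 h and to 0.709% at 24 h.

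To use libraries that did not choose the members, the choice was repeated on 2 replicate numbers and read in the third. Of the 200 clusters chosen each time, all were below their control in the held-out library in female roots at each time and in male roots at 12 and 24 h, and 199 in male roots at 6 h. The highest of the 6 held-out values was -1 or less in 198, 191 and 191 clusters. The median over all clusters of that highest value lay between 0.987 and 1.12. In single comparisons it was as low as -0.631 in female and -0.672 in male roots at 24 h, so a value below the control was common there. The shares of all clusters in held-out libraries were not counted. By means of 3 libraries, 27.6% of ranked clusters scored below 0 and 3.52% scored -1 or less.

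The control levels of the sexes differed for most members. Of the 200, 126 were called higher in female than in male control roots and 5 lower. Over all tested clusters 16.3% were called higher and 17.9% lower. The median log2 difference over members was 1.29, and over all clusters -0.01. The control libraries were also the denominators of the score, so a raised level in both controls was part of the choice. The score did not use the difference between the controls, but it put a floor under each. These calls thus rest on libraries that the choice also used.

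Split by log2((female + 0.5)/(male + 0.5)) of the control means, with limits set after the values were seen, the members fell into 3 ranges. It was under 1 in 74 members, 1 to under 3 in 82, and 3 or more in 44. Only 5 members lay from 2.5 to under 3, and 22 from 3 to under 3.5. Among the 11634 clusters whose control means both reached the lowest of any member (2.22 FPKM female, 1.43 FPKM male), 87.5%, 11.4% and 1.19% fell in these ranges.

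**Figure D2:**
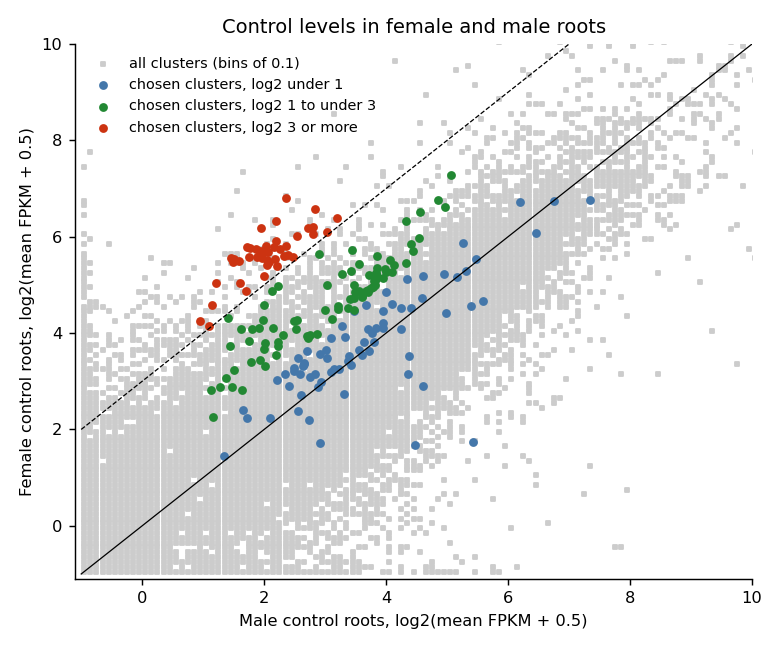
Mean level in female (y axis) and male (x axis) control roots as log2(mean FPKM + 0.5), for all clusters (grey bins, axes end at 10) and for the 200 members, coloured by the range of their log2 female over male. The solid line marks equal levels and the dashed line a log2 difference of 3. The 44 members of the highest range lie on the left of the dashed line by their definition, at a median of 49.5 FPKM in female and 3.59 FPKM in male control roots. They start at a log2 of 3.05, and the middle range ends at 2.90.

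In the range under 1, the median member held 11.6 FPKM in female and 11.0 FPKM in male control roots. In the middle range it held 26.6 and 9.52 FPKM, and in the range of 3 or more 49.5 and 3.59 FPKM. The ranges also differed in what was left under NaCl, which is given as a description. The female control mean enters both the range and the share left in female roots, and the choice used NaCl against control. At 6 h in female roots the median member kept 8.57% of its control level in the lowest range, 13.0% in the middle one and 1.06% in the highest. The quartiles of the highest range, 0.791 and 1.5%, lay below those of the lowest range, 5.06 and 11.5%.

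At 24 h in female roots the medians were 2.12%, 1.17% and 0.160%. In male roots at 24 h 42 of the 44 members of the highest range were listed at 0 in all 3 libraries, against 19 of 74 and 17 of 82. The male control level of these 44 was itself low, and its part in this count was not tested. In female control roots the 44 summed to 2199, 2411 and 2299 FPKM, and at 6 h to 26.4, 26.2 and 25.4.

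**Figure D3:**
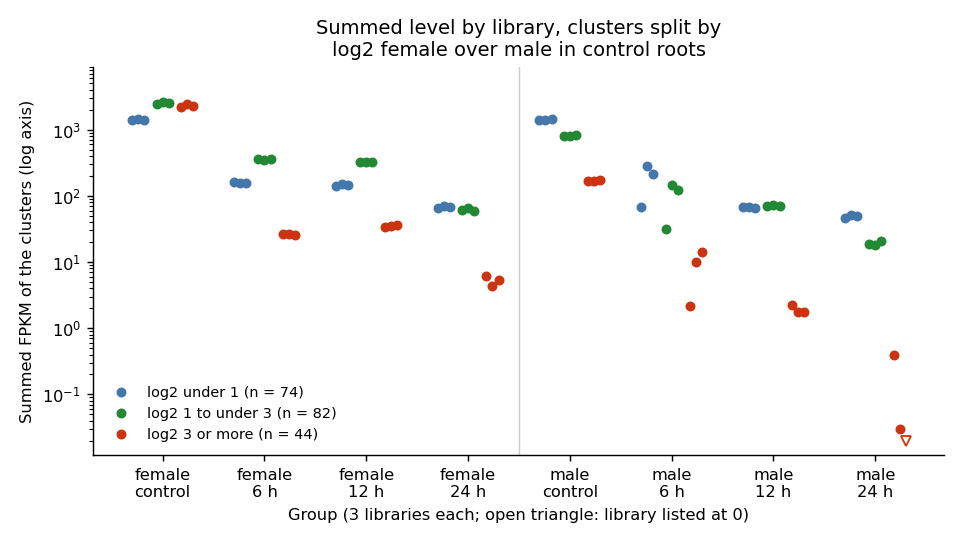
Summed FPKM (log axis) of the members in each of the 24 libraries (points), by group and by range of log2 female over male in control roots; the open triangle is a library in which all 44 clusters of the highest range were listed at 0. The red points of the highest range go from 2199 to 2411 FPKM in female control roots to 25.4 to 26.4 at 6 h, while the blue points of the lowest range go from 1408 to 1452 FPKM to 157 to 165.

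The 5 members with the largest difference in favour of female control roots were CL13809, CL14406, CL20029, CL10426 and CL11081. CL13809 held 100.1, 122 and 111 FPKM in female and 5.05, 4.44 and 4.46 FPKM in male control roots, a log2 difference of 4.44 (SE 0.39, limma adjusted p = 8.67e-09). The others differed by 4.07 to 4.25 on the log2 scale. At 24 h the 5 were at most at 0.51 FPKM in any female library and were listed at 0 in every male library.

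The 5 members called lower in female control roots were CL10246, CL16276, CL6838, CL3161 and CL8011. CL10246 held 3.78, 1.60 and 3.19 FPKM in female and 41.3, 43.0 and 42.4 FPKM in male control roots (log2 difference -3.73, SE 0.71, limma adjusted p = 0.000176). It was listed at 0 in all 9 female NaCl libraries. In male roots at 6 h it was at 0, 0 and 9.70 FPKM, so replicate 3 alone held it. CL3161 and CL8011 differed by -1.25 and -1.20, and with libraries scaled by their median ratio by -0.93 and -0.89, short of the threshold.

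The contigs inside a cluster show a second side of this difference. The 200 members hold 617 contigs, and 113 members (56.5%) have 1 or 2, against 35.1% of all clusters. In each of the 44 members of the highest range the contig with the most FPKM in female control roots was not the one that led in male control roots. In 27 of the 44 the contig that led in female roots was listed at 0 in all 3 male controls, and in 15 the contig that led in male roots was listed at 0 in all 3 female controls. In 93 other clusters of this range, whose control means only had to reach the lowest of any member, these shares were 14.0% and 4.30%. They were not matched to the 44 in level. The contigs carry no annotation here, so whether these transcripts are of the willow or of another organism in the roots was not tested.

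CL15982 has 2 contigs. Contig 2 held 82.8, 87.8 and 77.1 FPKM in female control roots and was listed at 0 in the 3 male ones. Contig 1 held 8.95, 4.94 and 12.0 FPKM in male control roots and 0, 0.88 and 0.87 in female ones. The sexes thus showed different contigs of 1 cluster, which the summed level does not show.

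CL17209 and CL13809 showed the same exchange. In CL17209 contigs 4 and 5 were read in female control roots (75.1 and 19.4 FPKM on average) and listed at 0 in male ones, and contig 3 was read in male control roots (4.75, 5.79 and 6.52 FPKM) and listed at 0 in female ones. In CL13809 contig 1 stood at 100.1, 122 and 111 FPKM in female and 0.13, 0 and 0 in male control roots. Contig 2 stood at 0 in the 3 female and 4.92, 4.44 and 4.46 FPKM in the male ones.

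Over the 44, the female-leading contig had a median of 46.5 FPKM in female and 0 in male control roots, and the male-leading contig 3.47 FPKM in male and 0.177 in female control roots. The share of contig make-up that the sexes had in common (the sum over contigs of the smaller of the 2 sexes' fractions) had a median of 1.17%, with quartiles of 0.178 and 2.52%. It was 89.7% in the 72 members of the lowest range with 2 or more contigs and 89.8% in the 82 of the middle range. Other clusters whose control means reached the lowest of any member, not matched in level, had lower medians in these 2 ranges. Theirs were 68.6% with a log2 under 1 (n = 10089) and 49.95% with a log2 of 1 to under 3 (n = 1238). Among the same 93 other clusters with a log2 of 3 or more, not matched in level, it was 48.0%, and their leading contig differed in 57. These ranges were chosen after their values were seen, so the difference was not tested.

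**Figure D4:**
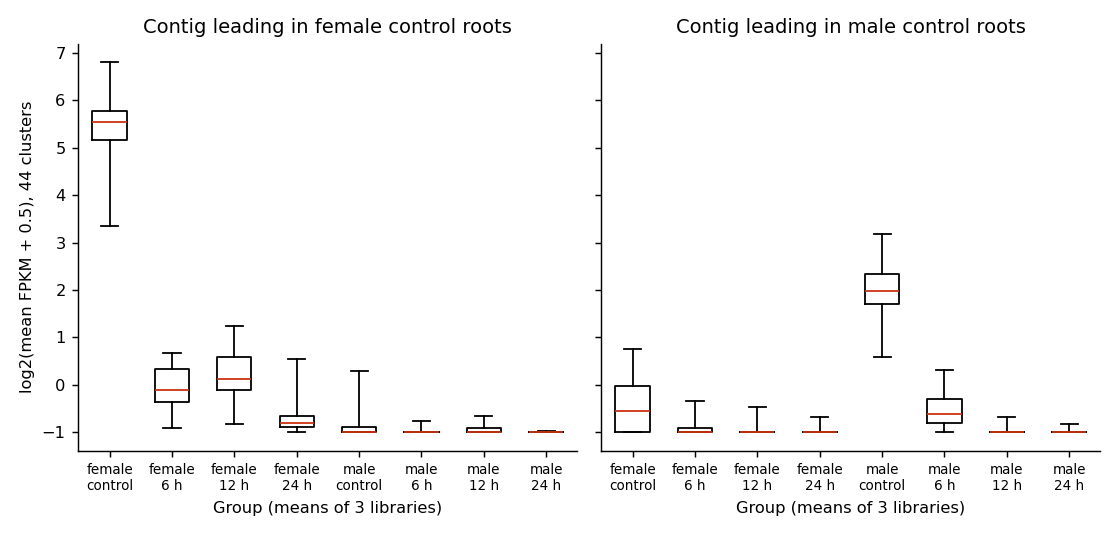
Group means as log2(mean FPKM + 0.5) (y axis) of the contig that led in female control roots (left) and of the one that led in male control roots (right) of the 44 clusters of the highest range, in the 8 groups (x axis). Boxes show quartiles and median, and whiskers the lowest and highest cluster. Each kind of contig is high in the control roots of its own sex, at medians of 46.5 and 3.47 FPKM, and at medians of 0.583 FPKM or less in every other group. The contigs were picked as highest in that control, in clusters chosen for low NaCl levels, so those levels follow from the picking.

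By limma on single contigs, 42 of 43 members of the highest range with 2 or more tested contigs held both a contig called higher and a contig called lower in female control roots. It was 20 of 76 in the middle range, 11 of 64 in the lowest, and 28.4% of 17134 clusters over the whole table. Contigs of 1 cluster are similar in sequence and can share reads, so how reads were split between them bears on each of these values.

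The sums of these contigs chose the members, so their calls under NaCl were largely fixed by the choice and are given as a description. Of the 515 contigs tested, 433, 435 and 443 were called lower in female roots at 6, 12 and 24 h, and 355, 358 and 374 in male roots. Over the 106315 tested contigs of all clusters the shares called lower were 21.9%, 6.83% and 16.6% in female and 20.3%, 31.7% and 33.6% in male roots. Called higher were 1, 1 and 0 contigs of the members in the female comparisons and 1, 0 and 0 in the male ones. Over all clusters the shares of contigs called higher were 27.8%, 9.26% and 10.7%, and 14.0%, 24.3% and 17.1%. At an unadjusted limma p under 0.05, 4, 1 and 0 were higher in female and 1, 1 and 0 in male roots.

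The 3 contigs called higher belonged to 2 abundant members. In CL20102, contig 11 went from 1.56 ± 0.29 FPKM in female control roots to 4.67 ± 0.58 at 12 h (SD, n = 3), while the cluster went from 152, 159 and 156 FPKM to 19.6, 21.6 and 19.0. In CL13408, contig 3 was at 0.17, 0 and 0 FPKM in female control roots and at a mean of 1.59 FPKM at 6 h. In male control roots the same contig held 39.3, 42.9 and 39.8 FPKM. Contig 1 of CL13408 reached 3.28 ± 4.08 FPKM (SD, n = 3) after 6 h in male roots, where its spread exceeded its mean.

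Few members kept enough FPKM under NaCl to ask which contig led. With at least 10 FPKM in both means, the leading contig differed from the control in 3 of 11, 0 of 4 and 0 of 2 members in female roots at 6, 12 and 24 h, in 1 of 3 and 1 of 1 in male roots at 6 and 24 h, and no member could be read in male roots at 12 h. Over all clusters it differed in 56.3%, 18.9% and 21.6% at the female times and in 40.3% and 59.3% in male roots at 6 and 24 h. Between female and male control roots it differed in 18 of 74 members (24.3%), against 56.7% of 6834 clusters. That minimum leaves out all 44 members of the highest range, and at 1 FPKM it differed in 92 of 198 (46.5%), against 55.3%.

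The members with the highest control level, over the 6 control libraries, were CL13408, CL12529, CL20102, CL12452, CL20097, CL13523, CL12764, CL13809, CL3673 and CL17209. CL13408 led in male control roots, at 157, 163 and 164 FPKM, against 107, 110 and 105 FPKM in female ones. CL20102 led in female control roots, and at 34.3, 32.9 and 31.9 FPKM in male control roots it was lower by 2.22 on the log2 scale (SE 0.29, limma adjusted p = 2.83e-06).

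CL12529 was close to even in the controls, with 100.8, 111 and 107 FPKM in female and 97.6, 100.3 and 123 FPKM in male roots. At 12 h both sexes still held about the same, 7.70, 11.0 and 10.2 FPKM in female and 9.48, 11.2 and 8.20 in male roots. At 24 h female roots held 3.51, 3.17 and 2.81 FPKM and male roots 0, 0.30 and 0.47. The log2 difference between the sexes at 24 h was 2.32 (SE 0.34, limma adjusted p = 2.06e-05).

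CL13523, CL12764 and CL3673, like CL20102, belonged to the middle range. CL13523 went from 100.1, 116 and 110 FPKM in female control roots through 22.7, 22.2 and 20.9 at 6 h and 11.6, 11.6 and 9.99 at 12 h to 1.04, 0.27 and 0.98 at 24 h. CL12764 went from 90.0, 101.6 and 103 FPKM to 0.33, 0.58 and 0.69 at 24 h, and CL3673 from 88.2, 94.9 and 90.9 FPKM to 0.43, 0.17 and 0.48. All 3 were thus lower at each later time in female roots.

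Between the sexes under NaCl, 66 members were called higher in female roots at 6 h and 0 lower, against 27.9% and 4.81% of all clusters. The choice capped each member's NaCl level against its own-sex control, so the counts under NaCl are bounded by it and are a description. At 12 h 106 were called higher and 0 lower (26.1% and 30.3% of all clusters), and at 24 h 20 higher and 3 lower (12.2% and 4.90%). The count at 24 h depends on the pseudocount, with 76 higher and 4 lower at 0.1 and 12 higher and 1 lower at 1. Of the 126 members higher in the female control, 86 were also called at 12 h, and 5 members were called in all 4 sex comparisons. Without replicate 1 of male 6 h NaCl the counts at 6 h were 55 higher and 10 lower. At an unadjusted limma p under 0.05, 10, 2 and 4 members were lower in female roots at these times, and 102, 135 and 52 higher. The fit pools the spread of all groups. Without the male 6 h libraries 96 members had such a p at 24 h, against 56 with them, while the calls stayed at 20 higher and 3 lower.

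Along the NaCl series, few members were called between 6 and 12 h in female roots. The choice used and capped the NaCl means at every time, so counts and p-values between times, in both sexes, are a description. Called higher at 12 h were 9 members and lower 1, against 8.72% and 34.7% of all clusters. At an unadjusted limma p under 0.05, 24 were higher and 18 lower. CL6758, CL14266 and CL4331 rose most, and CL15044 was the one that fell. CL6758 went from 0.95, 1.06 and 1.08 FPKM to 4.53, 5.70 and 4.33 (log2 difference 1.80, SE 0.33, limma adjusted p = 0.00013), in which the groups did not overlap. CL15044 went from 5.96, 5.45 and 7.42 FPKM to 1.09, 1.21 and 1.62, and stood at 2.90, 3.49 and 2.32 at 24 h.

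From 12 to 24 h, 88 members fell in female roots and 0 rose, against 10.2% and 3.07% of all clusters. Both times entered the choice, which capped any rise, so nothing is read from the distance to these shares. At an unadjusted limma p under 0.05, 139 were lower and 1 higher. CL14611, CL8366 and CL2189 fell most. CL14611 went from 8.98, 9.37 and 10.7 FPKM at 12 h to 0.35, 0.86 and 0.35 at 24 h (log2 difference -3.35, SE 0.22, limma adjusted p = 2.11e-09). CL8366 went from 8.25, 7.82 and 9.74 to 0.59, 0.44 and 0.28 FPKM, and CL2189 from 8.33, 4.56 and 6.79 to 0.25, 0.19 and 0.19.

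In male roots 19 members fell from 6 to 12 h and 0 rose, against 20.7% and 21.6% of all clusters. Many settings moved this count: without replicate 1 of male 6 h NaCl, 38 were called lower and 1 higher, and with libraries scaled by their median ratio 15 lower and 4 higher. With a pseudocount of 0.1 it was 43 lower and 4 higher, with 1 it was 11 lower, and with the compared groups fitted alone 3 members were called. At an unadjusted limma p under 0.05, 46 were lower and 5 higher. From 12 to 24 h, 62 fell and 6 rose, against 36.8% and 8.18% of all clusters. CL12529, CL12452 and CL14734 fell most. CL14734 went from 3.27, 3.58 and 3.19 FPKM to 0.16, 0.15 and 0.14 (log2 difference -2.56, SE 0.32, limma adjusted p = 1.5e-06).

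The members that fell from 12 to 24 h were in part shared by the sexes. Of the 88 in female and the 62 in male roots, 46 were common, which is 52.3% of the female and 74.2% of the male ones. Of the 44 members of the highest range, 21 were called lower in female roots and 0 in male roots (35 and 0 at an unadjusted limma p under 0.05). In male roots their means at 12 h were already at most 0.277 FPKM.

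The 6 members that rose in male roots from 12 to 24 h were CL13408, CL18836, CL20097, CL2775, CL4925 and CL600. CL20097 held 4.84, 30.9 and 13.9 FPKM at 6 h and 1.48, 2.04 and 1.92 FPKM at 12 h. By 24 h it held 13.4, 16.5 and 15.9 FPKM. The rise was 2.77 on the log2 scale (SE 0.36, limma adjusted p = 2.39e-06). In female roots it held 15.6, 16.2 and 13.9 FPKM at 12 h and 11.2, 11.3 and 10.3 at 24 h.

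CL4925 rose from 0.77, 1.57 and 0.77 FPKM to 7.13, 8.09 and 7.29, and CL600 from 0.81, 0.09 and 0.56 to 3.68, 5.06 and 5.11. CL13408 rose from 1.28, 1.48 and 2.29 FPKM to 7.53, 7.37 and 7.33. In each of these 4 the male libraries at 12 h were below every other library of either sex, except that replicate 1 of male 6 h NaCl read 1.09 FPKM in CL4925. CL18836 and CL2775 had the same order in male roots, at 0 to 0.54 FPKM at 12 h and 1.34 to 4 FPKM at 24 h. At 24 h all 6 were still under every male control library.

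**Figure D5:**
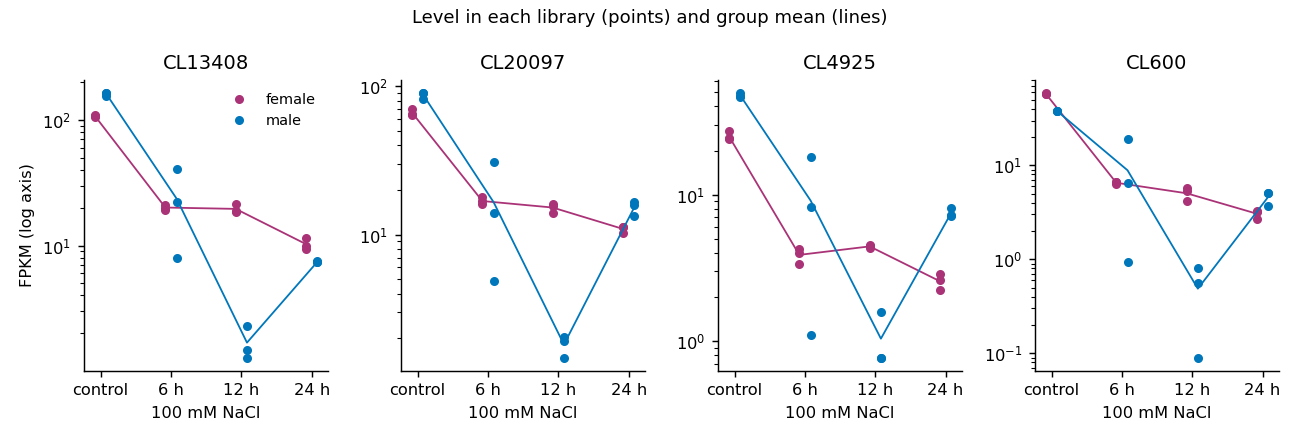
FPKM (log axis) of CL13408, CL20097, CL4925 and CL600 in control roots and after 6, 12 and 24 h in 100 mM NaCl (x axis); points are single libraries and lines join group means, female in purple and male in blue. In male roots all 4 are lowest at 12 h and higher at 24 h, while female roots show no such dip; the male 6 h libraries are spread widely, as from 4.84 to 30.9 FPKM in CL20097.

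Of the clusters named in the supplementary tables of the study, those nearest to the members were CL11411 and CL2909. CL11411, there named L-ascorbate peroxidase 2, an enzyme that removes hydrogen peroxide with ascorbate, ranked 507 with a score of -1.21. It held 5.42, 5.84 and 5.44 FPKM in female and 9.21, 9.07 and 7.77 FPKM in male control roots, and 1.30, 1.22 and 1.25 and 0.60, 1.04 and 0.53 at 24 h. In male roots at 6 h it read 2.18, 6.98 and 1.28 FPKM. Another cluster of that name, CL2500, was far more abundant, with means of 356 FPKM in female and 471 FPKM in male control roots. CL2500 ranked 4827 with a score of -0.126, so the low score of CL11411 does not stand for all transcripts of that name. CL2909, there named histone deacetylase HDT3, ranked 653 with a score of -1.06. It held 50.2, 52.4 and 50.6 FPKM in female control roots and 17.2, 16.2 and 16.9 at 24 h. The study took its named clusters from genes that it called changed under NaCl in these same libraries. They are no neutral sample of the clusters, so the counts that follow are a description. Of the 56, 14 had a score below 0 and 2 a score of -1 or less. Called lower under NaCl were 8, 8 and 16 of the 56 in female roots at 6, 12 and 24 h and 13, 18 and 20 in male roots. Called higher were 23, 16 and 17 in female and 15, 26 and 18 in male roots. Over all tested clusters 36.8%, 9.77% and 10.2% were called higher at the female times and 16.3%, 30.9% and 10.5% at the male ones. The shares called lower were 16.9%, 11.8% and 30.4% at the female times and 23.3%, 37.2% and 42.1% at the male ones.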

How the data were processed

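The authors sequenced root mRNA, assembled it de novo with Trinity, and deposited 1 table of FPKM values of 253209 contigs and single unigenes in 24 libraries (the methods of the study name RPKM; the sources used here name no aligner or counter). A value is relative to the mapped fragments of its library, so a large change in some transcripts moves the others. Contigs of a CL cluster were summed, which can add alleles and near-identical copies that shared reads. The members, the ranges and the lists were chosen with earlier results of these data known.

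The 95202 genes that reached 1 FPKM in 3 or more libraries, all 200 members among them, were tested as log2(FPKM + 0.5) with limma 3.58.1 in R 4.3.3, with 1 mean for each of the 8 groups and a trended prior, and Benjamini-Hochberg adjustment over all of them; folds of low genes are understated by the 0.5. On simulated data for female roots, 24 against 12 h, 188 of 200 changed genes were recovered with 2 false calls among 95202 genes. The simulation changed only genes well above the floor, by a fixed log2 size, and gave all groups the same spread. That spread was taken without the male 6 h libraries. The recovery therefore does not apply to members near 0 FPKM or to comparisons with male roots at 6 h. Replicate numbers did not pair the libraries. Named were the 20 members of lowest score, the 10 with the highest control level, the 3 on each side of rank 200, the 5 with the largest called sex difference in the controls in each direction, the 3 with the largest called change per time step and direction, and up to 5 with contigs that rose. Tables were made with Python 3.11.15, numpy 2.4.6 and pandas 2.3.3 and drawn with matplotlib 3.10.9. Alternatives changed the pseudocount, filter, scaling, fit and libraries, and the closing section gives their effect. Sequences and annotation of the contigs were not analysed here.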

Additional observations from a re-analysis of the deposited data

Results flagged for a closer look

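Among the members named for a change between NaCl times, the log2 change of 13 differed between the sexes by a limma interaction term (female minus male, Benjamini-Hochberg over all 95202 genes). From 6 to 12 h the difference was 3.18 for CL13408 (SE 0.47, limma adjusted p = 9.25e-06) and 2.88 for CL6758 (SE 0.47, limma adjusted p = 3.13e-05). It was 2.47 for CL8011, 2.30 for CL6838, 1.87 for CL4331 and 1.81 for CL14266. These members were named for a large called change in 1 sex, and the interaction uses the same values, so it is no independent test of a difference. The male 6 h libraries that enter these values stand apart from each other.

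From 12 to 24 h the difference was -3.23 for CL20097 (SE 0.50, limma adjusted p = 4.55e-05), -3.11 for CL4925 and -3.07 for CL600, each of which rose in male roots and was not called in female roots. It was -1.48 for CL2189 and -1.43 for CL14611, which fell more in female roots. It was 2.33 for CL12529 and 1.79 for CL12452, which fell more in male roots.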

How the results depend on the processing

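Of 168 recomputed counts, 156 stayed within 1.5 times their value. These include the counts of members lower under NaCl than in the control, which the choice had fixed, so their steadiness shows nothing. Those that did not were as follows. Members called between the sexes at 6 h numbered 37 with the compared groups fitted alone (66 in the fit of all groups). At 24 h they numbered 80 with a pseudocount of 0.1 and 13 with 1 (23 with 0.5). Male roots 12 against 6 h gave 47 with a pseudocount of 0.1, 11 with 1 and 3 with the groups fitted alone (19), and 15 to 41 when 1 replicate was left out, the highest without replicate 1. Male roots 24 against 12 h gave 42 with a pseudocount of 1 (68). Members whose leading contig differed between the control roots of the sexes numbered 43 of 124 at a minimum of 5 FPKM, 8 of 22 at 20 and 92 of 198 at 1 (18 of 74 at 10), against 56.1%, 57.3%, 55.3% and 56.7% of all clusters. The minimum of 1 FPKM and the settings that leave out single male 6 h libraries were chosen after seeing the data. The causes were not tested. Same-numbered libraries did not deviate together (correlations of -0.01 to 0.02), and a replicate block gave 130 called members in the control comparison against 131 without it. The choice kept 156 to 184 of its 200 members under the other settings. Scaling libraries by their median ratio moved the median of all genes by at most 0.207 (log2), and the median of the members from -2.98 to -2.40 in male roots at 12 h and from -3.56 to -2.98 at 24 h. The factors themselves ran from 0.644 in a male 24 h library to 1.51 in a male control library, so the shift of the all-gene median understates the scaling. Of the named clusters' changes, 0 turned their direction and 10 recomputed values fell short of the thresholds, CL6838, CL3161 and CL8011 in the control comparison, CL6838 and CL8011 in male roots 12 against 6 h, and CL600 in male roots 24 against 12 h. A further 15 counts of leading contigs under NaCl, over at most 11 members at 10 FPKM, moved by more than 1.5 times. Zeros and values under 1 FPKM limit what can be said of members at 24 h.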
